A study of Homo sapiens with 12 samples.

Results

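The ETS family of transcription factors was followed through inhibition of the MAPK pathway and its release in A375 melanoma cells, with 8 members chosen by gene name from the 44659 genes listed. They were the PEA3 subgroup (ETV1, ETV4 and ETV5), ETS1 and ETS2, the ternary complex factors ELK1 and ELK3, and GABPA. A375 is an established human melanoma line, and every library came from this line. Control cells (CC) were kept in the solvent DMSO for 72 h and harvested at day 0. In treated cells (TC), BRAF was inhibited with 500 nM vemurafenib and MEK with 500 nM cobimetinib (together MAPKi) over the same 72 h, and the harvest was also at day 0. Persister cells (PC) were exposed to the same drugs and then kept 2 days without them, and recovered cells (RC) 9 days without them. There were 3 libraries of each group, made from cytoplasmic RNA depleted of ribosomal RNA. No DMSO culture of day 2 or day 9 was analysed here, so for PC and RC the harvest day and the group cannot be told apart.

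ETS factors share a DNA-binding domain that recognises a core of GGA followed by A or T. Several are direct endpoints of the MAPK pathway: ERK phosphorylates ELK1, ELK3, ETS1 and ETS2, whereas transcription of the PEA3 genes depends on ERK because the repressor CIC occupies their regulatory regions until ERK signalling removes it. GABPA binds DNA as a complex with GABPB1 or GABPB2 and is known for its part in the transcription of nuclear genes for mitochondrial proteins.

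Promoters were examined because CIC and GABP have defined DNA words. The RefSeq table of GRCh38.p14 held 12 start sites for 5 of the 8 members (ETV1, ETS2, ELK1, ELK3 and GABPA), each with 250 bases before and 50 bases after the start, and ETV4, ETV5 and ETS1 were not matched. The CIC words TGAATGAA, TGAATGGA, TCAATGAA and TCAATGGA, the GABP word CCGGAAGT and the general ETS word GGAAGT, which lies inside the GABP word, were searched on both strands. Over 35116 promoters of this length, 3.77% held a CIC word, 4.14% the GABP word and 22.8% the general ETS word. One of the 6 start sites listed for ETV1, chr7:13991376-13991675 on the minus strand, held a CIC word at positions -125 to -118, and it is shown because ETV1 is a PEA3 gene. The start site of GABPA, chr21:25734722-25735021 on the plus strand, held the GABP word on the opposite strand at positions -67 to -60, and it is shown because the word is that of its own protein complex. Both are written 5′ to 3′ in the direction of transcription, with the word in capitals.
ETV1: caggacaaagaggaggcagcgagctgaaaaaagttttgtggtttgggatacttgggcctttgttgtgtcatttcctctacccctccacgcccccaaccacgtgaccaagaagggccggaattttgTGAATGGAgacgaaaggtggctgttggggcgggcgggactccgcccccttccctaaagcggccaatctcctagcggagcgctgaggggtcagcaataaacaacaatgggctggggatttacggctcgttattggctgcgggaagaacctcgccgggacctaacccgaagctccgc
GABPA: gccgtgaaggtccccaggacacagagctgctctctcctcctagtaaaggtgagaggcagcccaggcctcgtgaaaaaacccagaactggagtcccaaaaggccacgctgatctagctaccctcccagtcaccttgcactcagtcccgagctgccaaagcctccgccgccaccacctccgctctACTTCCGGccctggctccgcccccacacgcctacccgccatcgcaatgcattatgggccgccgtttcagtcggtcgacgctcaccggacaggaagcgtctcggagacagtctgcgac
Elsewhere, the general ETS word was found at 1 other start site of ETV1, at 1 of the 2 of ETS2 and, with 2 copies, at 1 of the 2 of ELK3. A match is a description of the letters and not evidence of binding.

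The libraries held between 37773389 and 55567097 counts. Levels are in CPM (library sizes normalized by TMM), and 3 counts in the shallowest library were 0.0794 CPM, a floor that covers counting error only. All 8 members passed the filter on low counts, which used the mean over all libraries. They had between 57 and 29993 counts per library, and 15916 genes were tested. Of the melanoma markers, SOX10 lay between 539 and 1070 CPM in every library, and the summed CPM of the 8 markers was 1830 to 2010 in CC, 7220 to 10400 in TC, 3650 to 5260 in PC and 1630 to 1700 in RC. The sum was carried by DCT, a melanin synthesis enzyme, with mean CPM of 407 in CC, 6450 in TC, 2600 in PC and 421 in RC, and by the melanosome protein PMEL (70.1, 615, 289 and 39.6). MITF, the melanocyte master regulator, had lower means in TC and PC (362, 321, 221 and 348), S100B had its lowest mean in TC (264, 140, 272 and 204), S100A1 lay between 103 and 176 CPM in every library, and MLANA and TYR stayed at 5.93 CPM or less. Whether the shift of these markers bears on the ETS results was not tested. The 8 markers of other cell types summed to between 2.13 and 6.05 CPM, with CD3E, PECAM1, KRT5 and ALB at 2 counts or fewer in every library. The other 4 were counted: mean CPM in CC, TC, PC and RC were 0.0151, 0.396, 2.29 and 0.0164 for KRT14, 4.11, 2.07, 1.72 and 3.36 for VWF, 0.555, 0.0421, 0.14 and 0.606 for PTPRC, and 0.232, 0.0943, 0.015 and 0.0552 for EPCAM. Their part in the ETS results was not tested. One control library, CC replicate 3, stood apart in immediate-early and feedback genes: EGR1 had 182 CPM in it against 16.9 and 19.7 in the other CC libraries, and SPRY4 had 720 against 342 and 270. In bulk RNA a change in level per cell and a change in the mix of cells cannot be told apart, and the labels do not say whether the 3 libraries of a group came from separate cultures, so that p-values measure the spread between these libraries, which may be technical.

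TC was compared with CC to find which ETS transcripts differed after 72 h of MAPKi. The 3 PEA3 genes fell to between 1.11% and 7.21% of their control level, and ETS1 rose 2.96-fold. At an adjusted p under 0.05 (edgeR quasi-likelihood test with Benjamini-Hochberg adjustment over all tested genes), 2 of the 8 members were higher and 3 were lower, where 33.2% of all genes were higher and 34.7% lower. Beyond 1.5-fold (edgeR glmTreat at the same threshold), 1 member was higher and 3 were lower, against 16.1% and 19.3% of all genes. The median log2 fold change of the 8 members was -0.03, and that of all tested genes was -0.02.

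ETV4 (chromosome 17, 43527844 to 43579620, minus strand, GENCODE v44 on hg38), an activator of genes for migration and matrix remodelling, had 236, 230 and 238 CPM in the CC libraries and 2.77, 2.68 and 2.39 CPM in the TC libraries. The groups were far apart and the replicates close together. ETV4 had the largest log2 fold change of the members, -6.49 (SE 0.10, adjusted p 1.6e-12). ETV5 (chromosome 3, 186046314 to 186110318, minus strand), a close paralogue of ETV4, had 259, 234 and 305 CPM in CC and 8.68, 8.23 and 8.15 CPM in TC. All CC libraries lay above all TC libraries, and the log2 fold change was -5.00 (SE 0.11, adjusted p 1.7e-11). ETV1 (chromosome 7, 13891229 to 13991425, minus strand), known as a survival factor in gastrointestinal stromal tumours and as a gene amplified in some melanomas, had 83.3, 89.5 and 84.0 CPM in CC and 5.62, 6.52 and 6.38 CPM in TC. Its log2 fold change of -3.79 (SE 0.10, adjusted p 3.7e-11) was the smallest of the 3, with a 95% interval of -4.00 to -3.58 that did not meet those of ETV5 (-5.23 to -4.76) and ETV4 (-6.71 to -6.27). The difference between the genes was not itself tested.

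ETS1 (chromosome 11, 128458761 to 128587558, minus strand), the founding member of the family and an activator of matrix and vascular genes, moved the other way. It had 187, 189 and 205 CPM in CC and 582, 578 and 559 CPM in TC. The groups did not overlap, and the log2 fold change was 1.57 (SE 0.05, adjusted p 3.7e-10). GABPA (chromosome 21, 25734570 to 25772460, plus strand) had 54.6, 52.8 and 57.9 CPM in CC and 69.2, 65.6 and 63.1 CPM in TC. The groups were again separate, but the difference was small, 0.26 on the log2 scale (SE 0.07, adjusted p 0.0038). Opposite-strand exons of ATP5PF cover 12.05% of the merged exons of GABPA, and whether the counting used strand is not given in the sources used here.

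The remaining 3 members did not pass the test in TC. ETS2 (chromosome 21, 38805183 to 38824955, plus strand), the closest paralogue of ETS1, had 11.7, 12.1 and 18.5 CPM in CC and 11.0, 15.1 and 21.6 CPM in TC, so that the ranges overlapped almost wholly (log2 fold change 0.18, 95% interval -0.32 to 0.68). ELK1 (chromosome X, 47635521 to 47650604, minus strand), which activates immediate-early genes together with the serum response factor SRF, had 67.6, 59.8 and 79.3 CPM in CC and 70.5, 73.4 and 73.7 CPM in TC. Its log2 fold change was 0.07 with a 95% interval of -0.11 to 0.26. Without CC replicate 3, which held the highest ELK1 level of the group, the value was 0.19 and passed the test (adjusted p 0.014). ELK3 (chromosome 12, 96194375 to 96269824, plus strand), a ternary complex factor that represses until it is phosphorylated, lay between 90.6 and 107 CPM in CC and between 85.9 and 90.7 CPM in TC, a log2 fold change of -0.14 with a 95% interval of -0.29 to 0.02, called lower only without CC replicate 1 (-0.18, adjusted p 0.042).

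**Figure D1:**
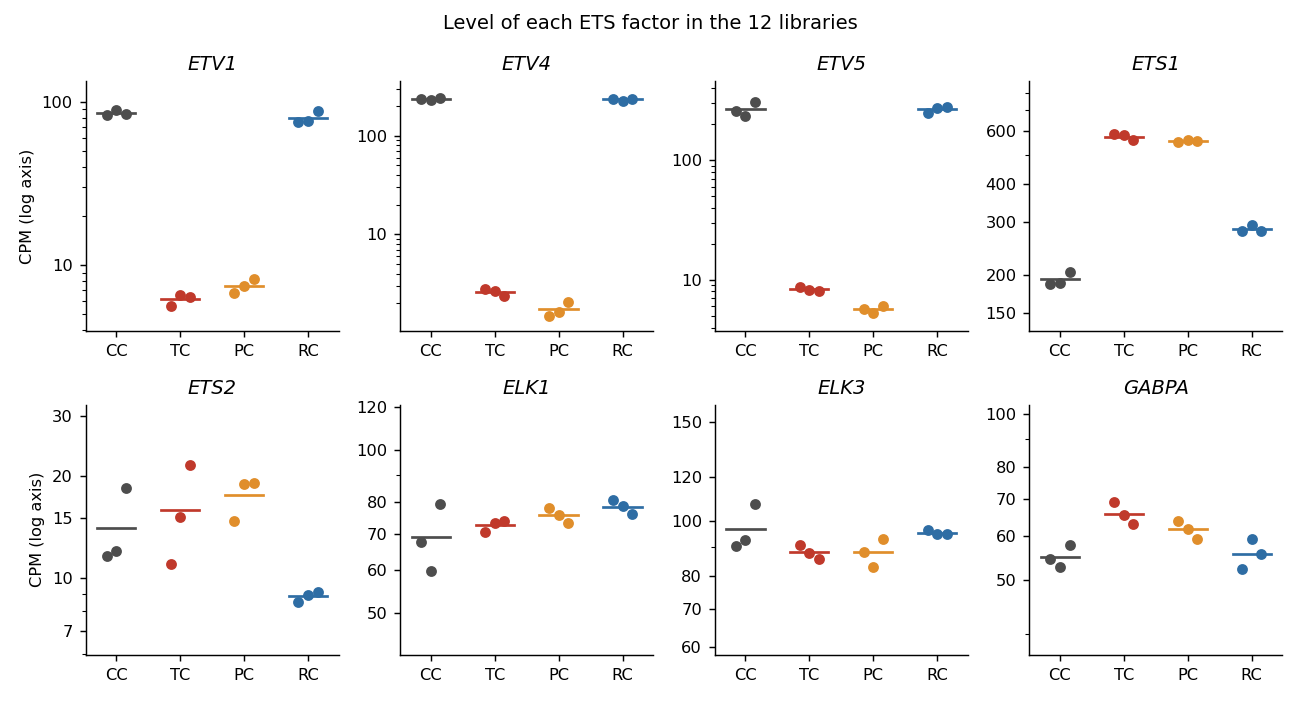
CPM of each of the 8 ETS factors on a log axis that differs between panels, with 1 point per library and a line at the mean of the 3 libraries of CC, TC, PC and RC. ETV1, ETV4 and ETV5 drop by more than an order of magnitude in TC and PC and are back near the control level in RC, ETS1 stands between 559 and 582 CPM in TC and stays above CC in RC, ETS2 is lowest in RC, and ELK1, ELK3 and GABPA span narrow ranges.

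The comparison of PC with CC asked what remained 2 days after the drugs were removed. PC and TC were set against the same CC libraries. In PC, 2 members were higher and 3 were lower at an adjusted p under 0.05 (all genes: 33.2% higher, 35.9% lower), and beyond 1.5-fold 1 was higher and 3 were lower (all genes: 17.2% and 19.9%). ETV4 had 1.49, 1.63 and 2.08 CPM in PC, -7.08 on the log2 scale against CC (SE 0.11, adjusted p 9.7e-13). ETV5 had 5.68, 5.32 and 6.08 CPM (-5.55, SE 0.11, adjusted p 8.8e-12), and ETV1 had 6.78, 7.41 and 8.21 CPM (-3.52, SE 0.09, adjusted p 4.7e-11). Thus no PEA3 gene had regained 10% of its control level. ETS1 had 550, 558 and 553 CPM, 1.51 above CC on the log2 scale (SE 0.06, adjusted p 4.4e-10). GABPA had 64.0, 61.9 and 59.3 CPM, and its log2 fold change of 0.16 was at the edge of the test (adjusted p 0.042); it was lost in 10 of 18 alternative analyses, with adjusted p up to 0.12, among them those without CC replicate 1 or 2, TC replicate 2, PC replicate 1 or 2, or RC replicate 3. ETS2, with 14.8, 19.0 and 19.1 CPM, ELK1, with 73.3 to 78.1 CPM, and ELK3, with 82.9 to 93.0 CPM, did not pass. Without CC replicate 3, ETS2 (0.58, adjusted p 0.036) and ELK1 (0.26, adjusted p 0.0024) were called higher, and without CC replicate 1 ELK3 was called lower (-0.19, adjusted p 0.04).

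Set directly against TC, PC showed movement within the PEA3 subgroup. ETV4 and ETV5, already low at the end of MAPKi, were lower still after 2 days without drug, and ETV1 was not. No member was higher and 2 were lower (all genes: 12.2% higher and 12.5% lower), and none passed beyond 1.5-fold (all genes: 2.33% and 1.15%). At an unadjusted p under 0.05 in edgeR, and in DESeq2, 1 member was higher, ETV1, and by the same measures 0 passed beyond 1.5-fold. The log2 fold change of ETV4 was -0.58 (SE 0.11, adjusted p 0.003), and its 3 PC libraries lay below its 3 TC libraries. For ETV5 it was -0.55 (SE 0.10, adjusted p 0.0025), again without overlap. Both calls held in all 18 alternatives. These values rest on small counts for ETV4, between 57 and 128 reads per library. ETV1 had every PC library above every TC library and a fitted log2 difference of 0.27 (SE 0.09, 95% interval 0.07 to 0.48) that missed the threshold (adjusted p 0.052); it passed in 8 of the 18 alternatives, among them those without CC replicate 2 or 3, PC replicate 1 or RC replicate 3. The other 5 members did not pass, and ETS1 differed by -0.05 on the log2 scale (95% interval -0.17 to 0.07). Its PC libraries (549.6 to 558.4 CPM) also lay below its TC libraries (559.4 to 582.4 CPM). How many of all genes separate in this way was not computed.

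**Figure D2:**
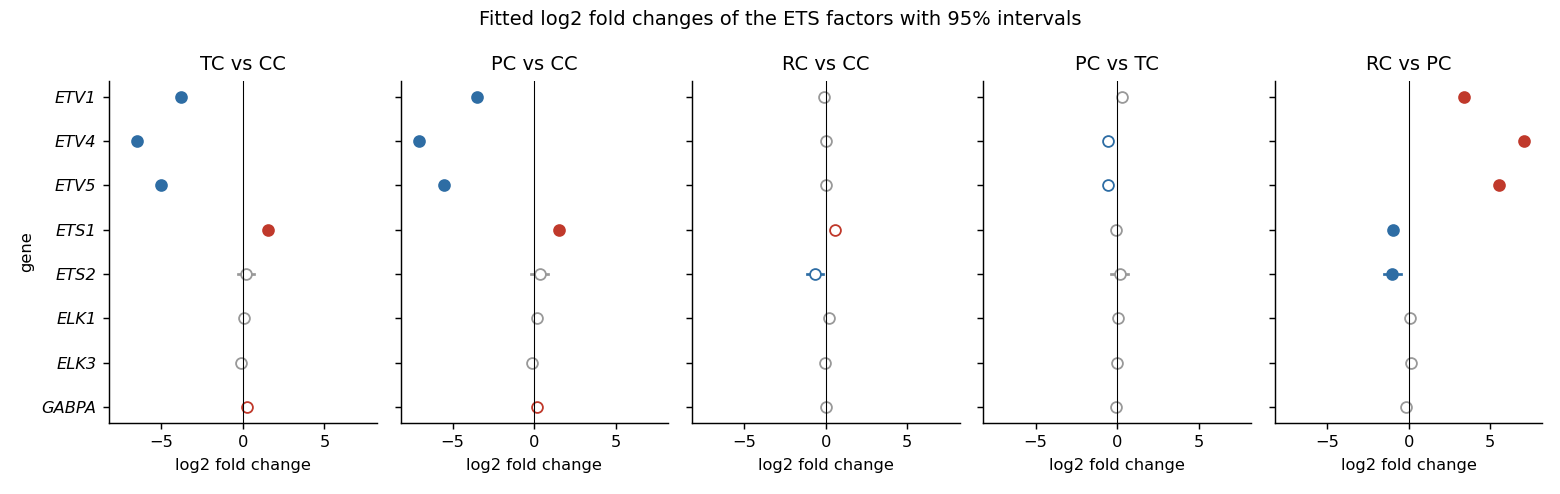
Fitted log2 fold changes of the 8 members (rows) in the 5 comparisons (panels), with 95% intervals as lines that are often shorter than the symbol. Red marks called higher, blue called lower and grey not called, and filled symbols passed beyond 1.5-fold. PC against TC is the panel in which ETV4 and ETV5 lie on the opposite side of 0 from ETV1.

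The comparison of RC with PC covered the later days without drug, and growth was not measured in these libraries. From day 2 to day 9, 3 members rose and 2 fell (all genes: 35.7% higher and 34.2% lower), and all 5 passed beyond 1.5-fold (all genes: 20.2% and 18.5%). ETV4 rose 133-fold (log2 fold change 7.06, SE 0.11, adjusted p 1.9e-12), ETV5 46.6-fold (5.54, SE 0.11, adjusted p 9.6e-12) and ETV1 10.7-fold (3.42, SE 0.09, adjusted p 7.8e-11). The log2 fold change of ETS1 was -0.97 (SE 0.05, adjusted p 1.2e-08) and that of ETS2 -0.99 (SE 0.23, adjusted p 0.0021). ETS2 passed beyond 1.5-fold narrowly (adjusted p 0.04), but not in DESeq2 and not when any RC library or PC replicate 2 or 3 was left out. ELK1, ELK3 and GABPA did not pass, but GABPA (-0.15, adjusted p 0.064) was called lower in 5 of the 18 alternatives, 2 of them those without CC replicate 3 or RC replicate 2.

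The comparison of RC with CC asked how far the family had come back. None of the 3 PEA3 genes was called against the controls, and ETS1 was. One member was higher and 1 was lower (all genes: 18.2% higher and 19.1% lower), and none passed beyond 1.5-fold in edgeR, also at an unadjusted p under 0.05, or in DESeq2 (all genes: 1.35% and 2.52%). ETV4 had 234, 226 and 237 CPM in RC, a log2 fold change from CC of -0.02 (95% interval -0.18 to 0.15). ETV5 had 248, 271 and 277 CPM (a difference within a 95% interval of -0.20 to 0.19). ETV1 had 75.5, 76.6 and 87.4 CPM (-0.10, 95% interval -0.28 to 0.08). These intervals bound what the 3 libraries could show and do not establish equal levels.

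ETS1 had 279, 292 and 279 CPM in RC, so that all RC libraries lay above the highest CC library and below the lowest PC library. Its level was 1.46-fold that of CC (log2 fold change 0.55, SE 0.05, adjusted p 3.7e-05), and the call held in all 18 alternatives, with values of 0.52 to 0.60. ETS2 had 8.52, 8.94 and 9.12 CPM in RC, below every CC library, and its log2 fold change was -0.67 (SE 0.23, adjusted p 0.039). That call was lost in 6 of 18 alternatives, those without CC replicate 3 (-0.42, adjusted p 0.15), TC replicate 2, PC replicate 2 or any 1 of the RC libraries. ELK1 had 80.7, 78.9 and 76.0 CPM in RC, and its log2 fold change of 0.19 (adjusted p 0.1) became 0.31 (adjusted p 0.0021) without CC replicate 3. GABPA, with 52.3 to 59.3 CPM, and ELK3, with 94.9 to 96.5 CPM, differed from CC by 0.02 and -0.02 on the log2 scale.

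Levels of different members were compared per kilobase of the Ensembl canonical transcript. In CC the order was ETV4 (101 ± 1.75 CPM per kb, SD, n = 3), ETV5 (65.2 ± 8.81), ETS1 (37.7 ± 1.98), ELK1 (23.9 ± 3.43), ELK3 (23.1 ± 2.14), ETV1 (13.3 ± 0.52), GABPA (10.5 ± 0.50) and ETS2 (3.83 ± 1.04). ELK1 and ELK3 overlapped between libraries, and both that pair and the pair of ETV1 and GABPA changed places when merged exon lengths were used instead. In TC the order was turned over: ETS1 stood first at 112 ± 2.38 CPM per kb, ahead of ELK1 (25.2 ± 0.62), ELK3 (21.0 ± 0.57), GABPA (12.6 ± 0.59) and ETS2 (4.34 ± 1.45), and the PEA3 genes came last with ETV5 at 2.05 ± 0.07, ETV4 at 1.12 ± 0.09 and ETV1 at 0.96 ± 0.07. PC had the same first 6 ranks, but ETV1 (1.16 ± 0.11) then stood above ETV4 (0.74 ± 0.13). RC had the order of CC, with ETS1 at 55.1 ± 1.53 CPM per kb against 65.0 ± 3.68 for ETV5.

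On this scale the 3 PEA3 genes summed to 179 ± 10.0 CPM per kb in CC, 4.12 ± 0.10 in TC, 3.29 ± 0.31 in PC and 177 ± 5.55 in RC (SD, n = 3). They made up 64.4% of the summed level of the 8 members in CC, 2.30% in TC, 1.88% in PC and 59.9% in RC. The share of ETS1 was 13.6% in CC, 62.4% in TC, 61.6% in PC and 18.7% in RC. Within the PEA3 subgroup, ETV4 made up 56.2% ± 2.24 in CC, 27.1% ± 1.47 in TC, 22.4% ± 1.84 in PC and 56.3% ± 1.48 in RC. The share of ETV1 was 7.43% ± 0.67 in CC, 23.2% ± 2.10 in TC, 35.1% ± 1.20 in PC and 6.98% ± 0.35 in RC, and every PC library (34.1% to 36.4%) lay above every TC library (20.8% to 24.7%). The ratio of ETS1 to the PEA3 sum ran from 0.20 to 0.22 in CC, from 26.9 to 27.2 in TC, from 29.5 to 34.8 in PC and from 0.30 to 0.33 in RC. The RC and CC ranges of this ratio did not overlap, although the PEA3 sums did. These shares were not tested, since with 3 libraries against 3 the smallest two-sided exact p is 0.1.

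**Figure D3:**
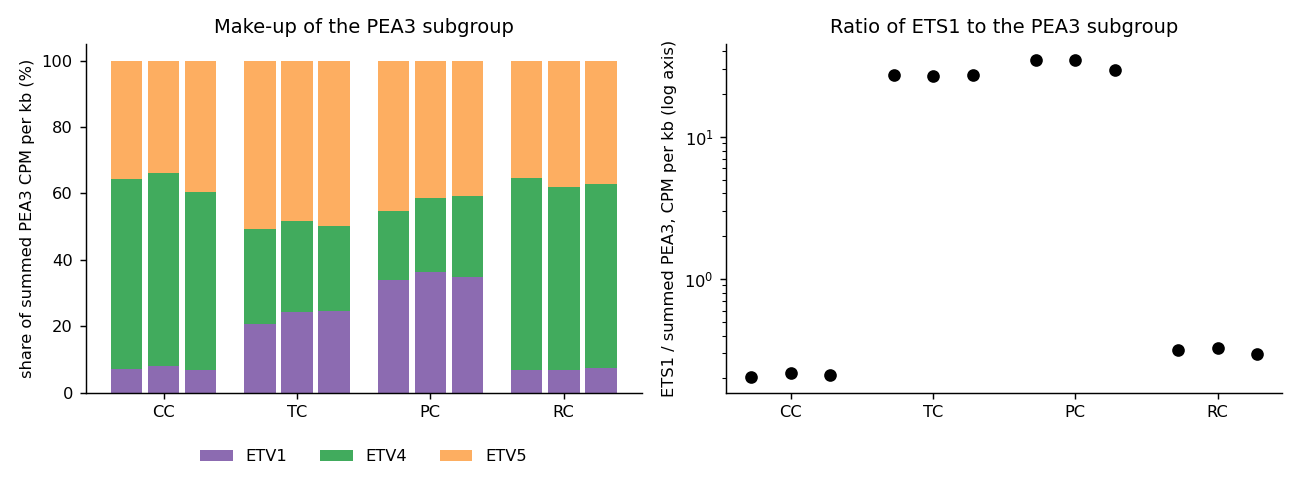
Left, share of ETV1, ETV4 and ETV5 in the summed PEA3 level (CPM per kb, percent) with 1 bar per library; right, ratio of ETS1 to that sum (CPM per kb, log axis) with 1 point per library. The ETV1 share grows from CC through TC to PC and returns in RC, and the ratio lies above 26 in all TC and PC libraries and below 0.33 in all CC and RC libraries.

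For each member, the 2 genes outside the set with the most similar pattern were found by Pearson correlation of log2 CPM over the 12 libraries. These correlations describe libraries in 4 groups that differ greatly, so many genes reach high values. ETV4 was most like TPD52L1 (r = 0.9996) and MTHFD1 (0.999), a folate enzyme. TPD52L1 had 94.3 CPM in CC, 11.3 in TC, 9.15 in PC and 94.2 in RC. ETV5 was most like TPD52L1 (0.999) and GJB1 (0.998), a gap junction protein that had 66.7 CPM in CC and 0.971 in TC. ETV1 was most like MAP3K5 (0.998), a stress-activated kinase, and SERBP1 (0.997), an RNA-binding protein. ETS1 was most like the homeobox gene PKNOX2 (0.996) and TMEM191A (0.994), and PKNOX2 had 30.8 CPM in CC, 111 in TC, 107 in PC and 50.6 in RC, also above CC at day 9. ETS2 was most like TMEM168 (0.940), below the best values of ETV1, ETV4, ETV5 and ETS1. ELK1 (KLHL18 0.957, POMK 0.943), ELK3 (PRPF39 0.913, AMH 0.905) and GABPA (ZNF791 0.967, RNF216 0.960) also had best values below those 4.

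The other ETS genes were examined to see whether the family moved as a whole. Of 20 listed, 9 passed the filter, and 5 of those rose and 0 fell in TC in edgeR, 3 of them beyond 1.5-fold (all genes: 33.2% higher and 34.7% lower, and 16.1% higher beyond 1.5-fold); 0 fell at an unadjusted p under 0.05 or in DESeq2 either. The median log2 fold change was 0.28. Without CC replicate 3, 7 of the 9 rose, ETV3 (0.53, adjusted p 2.8e-05) and ELF1 (0.19, adjusted p 0.016) being added, and the median was 0.53. In that fit 5419 of 15900 genes were higher. The largest rise was that of SPI1, the myeloid factor PU.1, which was scarce throughout: 0.346, 0.407 and 0.339 CPM in CC and 2.36, 1.43 and 1.08 CPM in TC (log2 fold change 2.15, SE 0.37, adjusted p 0.00026). ETV2 and ERF were the others beyond 1.5-fold, and these are named after their values were seen. ERF, an ETS repressor that ERK expels from the nucleus, had 102, 98.4 and 158 CPM in CC and 275, 323 and 359 CPM in TC. All TC libraries were above CC, and the fitted log2 difference was 1.42 (SE 0.16, adjusted p 6.3e-06). ERF was at 347 to 382 CPM in PC and was 106 to 113 CPM in RC. In RC, 2 of the 9 were called higher, ETV6 (0.64, adjusted p 0.00019) and ELK4 (0.29, adjusted p 0.023), where 18.2% of all genes were higher. Without CC replicate 3, 3 were called higher, with ETV3 (0.20, adjusted p 0.031) added and ELK4 at 0.43, where 3379 of 15900 genes were higher. ETV3, ELF1, ETV6 and ELK4 are also named after their values were seen. FLI1, FEV, ETV3L and SPIC had no counts in CC or TC.

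Partners and regulators of the members were all detected, and all 11 were called in TC, 9 higher and 2 lower (median log2 fold change 0.52), where 33.2% of all genes were higher and 34.7% lower. The largest rise was that of CIC, the repressor of the PEA3 genes: 79.0, 69.9 and 93.8 CPM in CC and 230, 242 and 274 CPM in TC, 1.62 higher on the log2 scale (SE 0.10, adjusted p 4.8e-08). CIC stood at 279 to 299 CPM in PC and at 90.2 to 104 CPM in RC, where it did not differ from CC by the test (0.26, adjusted p 0.066) unless CC replicate 3 was left out (0.38, adjusted p 0.005). MRTFA, an SRF coactivator, and GABPB2 also passed beyond 1.5-fold, and both are named after their values were seen. The partners of GABPA moved apart: GABPB2 rose from 6.39 ± 1.42 to 12.4 ± 0.78 CPM (log2 fold change 0.95, adjusted p 9.6e-05) and GABPB1 fell from 18.2 ± 1.46 to 13.9 ± 1.04 CPM (-0.39, adjusted p 0.002). DDB1, an adaptor of the COP1 and DET1 ubiquitin ligase that degrades PEA3 proteins, was the other that fell (-0.59, adjusted p 5.9e-07). COP1 (0.245, adjusted p 0.01) and DET1 (0.575, adjusted p 0.00043) were among the 9 called higher. DDB1, COP1 and DET1 are named after their values were seen. In PC against TC, DDB1 fell further (-0.40, adjusted p 0.00015) and was the 1 gene of the 11 called (all genes: 12.2% higher and 12.5% lower). SRF (log2 fold change 0.26, adjusted p 0.14) was also called higher when CC replicate 3 was left out (0.26, adjusted p 0.016).

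**Figure D4:**
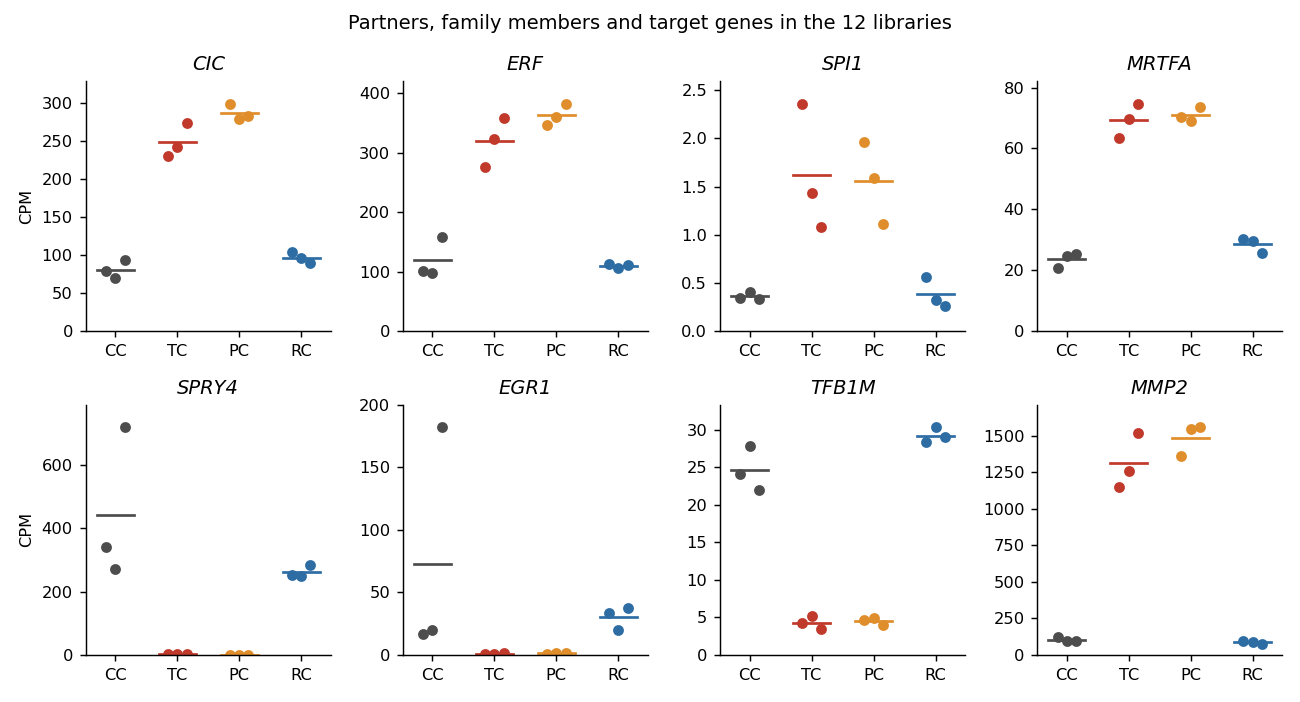
CPM on a linear axis from 0 of 8 genes around the ETS factors, with 1 point per library and a line at the group mean. CIC, ERF, MRTFA and MMP2 are high in TC and PC, SPRY4, EGR1 and TFB1M are low there, and the SPRY4 and EGR1 means in CC are drawn up by CC replicate 3.

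Of 8 feedback regulators of ERK that CIC is known to repress, 6 fell in TC and 0 rose in edgeR (median log2 fold change -1.97), where 34.7% of all genes were lower and 33.2% higher, and 0 rose at an unadjusted p under 0.05 or in DESeq2. The others were DUSP5 (0.25, adjusted p 0.45), a phosphatase of ERK, and SPRED3 (0.23, adjusted p 0.21), and both are named after their values were seen. Without CC replicate 3, DUSP5 was called higher (0.84, adjusted p 2.2e-05). The largest fall was that of SPRY4, an inhibitor of receptor signalling to ERK, with 1.79, 1.46 and 1.72 CPM in TC (log2 fold change -8.06, or -7.52 without CC replicate 3). In PC it had 0.837, 0.674 and 0.925 CPM, and PC did not pass against TC (-1.03, adjusted p 0.16) unless CC replicate 3 was left out of the fit (adjusted p 0.0024). In RC, 2 of the 8, SPRY2 and SPRY4, were lower than CC (all genes: 19.1% lower and 18.2% higher). Without CC replicate 3 the counts were 3 higher and 1 lower, where 3379 of 15900 genes were higher and 3238 lower.

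Of 8 immediate-early and related targets of ELK factors and SRF, 4 fell and 1 rose in TC (median log2 fold change -1.34, or -0.40 without CC replicate 3, when 3 fell and 2 rose), where 34.7% of all genes were lower and 33.2% higher. Without CC replicate 3, 5516 of 15900 genes were lower and 5419 higher. The largest fall was that of EGR1, a zinc finger factor, with 0.648, 0.716 and 1.18 CPM in TC (log2 fold change -6.39, SE 0.95, adjusted p 7.5e-05), and -4.40 without CC replicate 3. The gene that rose was FOS (0.61, adjusted p 0.036), named after its value was seen. The levels of ELK1 and ELK3 themselves were not called in TC with all libraries, but ELK1 was called higher without CC replicate 3 and ELK3 lower without CC replicate 1, as given above.

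Of 12 listed GABP targets, COX5B did not pass the filter, with 12 counts summed over all libraries. Of the 11 tested, 5 fell and 0 rose in TC in edgeR (all genes: 34.7% lower and 33.2% higher). The median log2 fold change was -0.07, or -0.18 without CC replicate 3, and 2 were higher at an unadjusted p under 0.05 and in DESeq2. GABPA itself was higher. The largest fall was that of TFB1M, a mitochondrial rRNA methyltransferase, with 24.2, 27.8 and 21.9 CPM in CC and 4.20, 5.19 and 3.51 CPM in TC (-2.52, SE 0.14, adjusted p 1.7e-08). In PC 9 of the 11 were lower than CC (median -0.53), and 7 were lower than in TC (median -0.34), where 35.9% and 12.5% of all genes were lower. Without CC replicate 3 these counts were 10 and 8, where 5686 and 2469 of 15900 genes were lower. In RC 3 of the 11 were lower than CC (all genes: 19.1%), and 7 were without CC replicate 3, where 3238 of 15900 genes were lower. TFB1M was back at 28.3 to 30.3 CPM in RC. Of 5 tested genes known as ETS1 or PEA3 targets, 3 rose and 1, VIM, fell in TC, where 33.2% of all genes were higher and 34.7% lower. The median log2 fold change was 0.87, and that of VIM was -0.28 (adjusted p 0.027, named after its value was seen). MMP3, named for its low counts, was tested but lay near the floor, with mean CPM of 0.118 in CC and 0.084 in TC. The 5 others, among them MMP1, MMP7, MMP9 and MMP13, did not pass the filter. The largest rise was that of MMP2, a gelatinase: 121, 93.6 and 94.4 CPM in CC against 1149, 1260 and 1520 CPM in TC (3.67, SE 0.14, adjusted p 6.6e-10). MMP2 was at 1362 to 1556 CPM in PC and was 76.7 to 95.1 CPM in RC, a difference from CC that did not pass (-0.25, adjusted p 0.14).

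**Figure D5:**
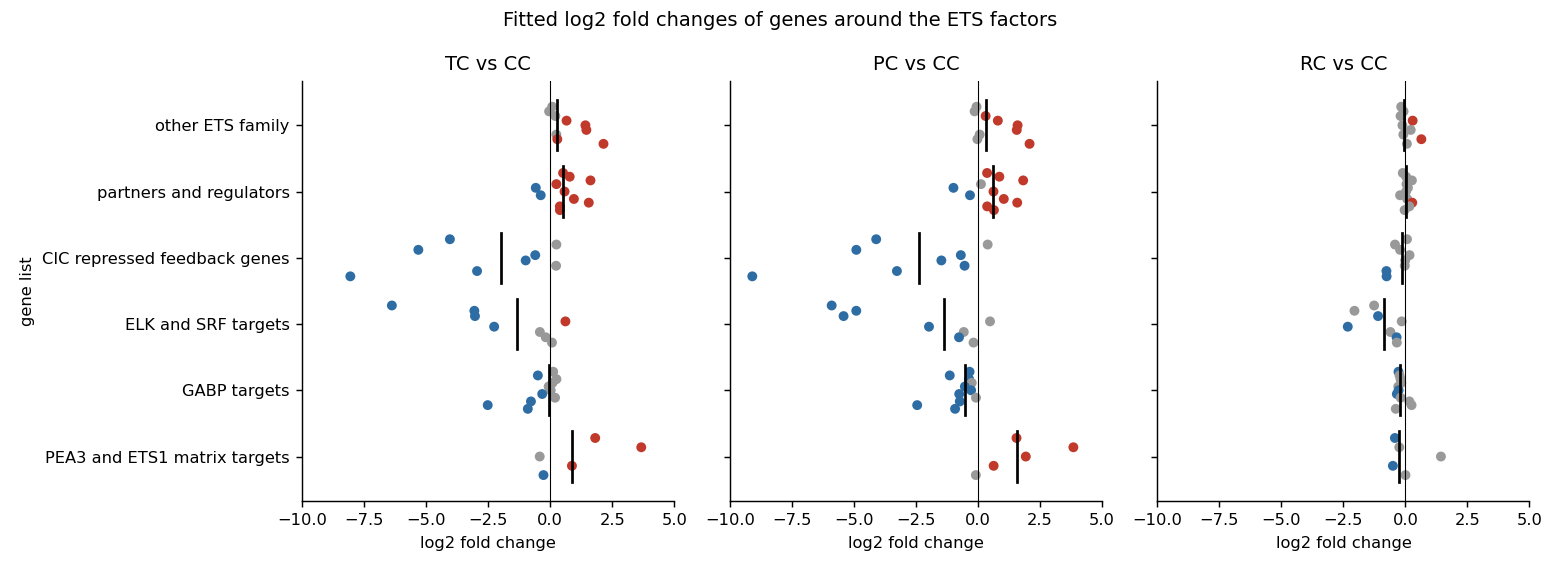
Fitted log2 fold changes of the tested genes of 6 lists (rows) in TC, PC and RC against the same CC libraries, with 1 point per gene and a black line at the list median; red is called higher, blue called lower and grey not called. The feedback genes reach a median of -1.97 in TC and -2.37 in PC and lie around 0 in RC, and the partners lie mostly to the right in TC and PC.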

How the data were processed

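RNA was measured in 12 libraries of A375 cells, 3 in each of 4 groups taken from the labels. The file deposited by the authors holds raw read counts per gene without normalization; per the labels, reads were trimmed with fastp 0.20.1, aligned with HISAT2 2.2.1 to GRCh38.p13 and counted with HTSeq 0.13.5 on an NCBI annotation. Strandedness and the treatment of reads that align to several places are not given in the sources used here, so reads of paralogues and of overlapping genes may be shared: exons of DHX8 cover 1.93% of ETV4, those of DGKG 2.84% of ETV5, and lncRNA exons 2.25% of ETS2 and 4.5% of ELK3.

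From these counts, genes with a mean library-scaled count of at least 10 were tested (15916 of 44659). The 12 libraries entered a single quasi-likelihood fit with 4 group means (edgeR 4.0.16, R 4.3.3), with TMM factors of 0.965 to 1.02, 8 residual degrees of freedom and a common biological coefficient of variation of 0.182. The two-sided glmQLFTest gave p-values, adjusted by Benjamini-Hochberg over all tested genes, and 0.05 was the threshold; glmTreat tested changes beyond 1.5-fold. Standard errors came from the F statistic. CPM are scaled to the normalized library size and relative to the RNA sequenced, and do not measure RNA per cell. The procedure was also run on counts simulated from the fitted spread, which cannot show that the calls hold in these libraries. No pair of replicates agreed within sampling noise.

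The members and gene lists were chosen with earlier results of these data known. Named genes were all members, the most similar 2 genes of each (log2 of CPM plus 0.5, mean CPM of at least 1), and in each list the gene with the largest rise and the gene with the largest fall in TC among those beyond 1.5-fold. Other list genes were named after their values were seen. Most are marked in the text, but GABPB1, SRF and SPRY2 are not. One of the similar genes is not reported here. Gene coordinates and lengths came from GENCODE v44 (hg38), which was not the counting annotation, and promoters from RefSeq (GRCh38.p14). The 18 alternatives were 2 other scalings, a filter of a summed count of at least 2, DESeq2 1.42.0, a replicate block, fits of only the groups compared, and leaving out each of the 12 libraries.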

Additional observations from a re-analysis of the deposited data

Results flagged for a closer look

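Changes from CC that differed between harvest days are given here. They were tested as PC against TC or RC against PC, which leaves out the CC mean. The CC libraries still entered the single fit and its estimate of the spread. Between day 0 and day 2, ETV4 (-0.58 on the log2 scale) and ETV5 (-0.55) differed. Between day 2 and day 9, ETV1 (3.42), ETV4 (7.06), ETV5 (5.54), ETS1 (-0.97) and ETS2 (-0.99) differed. Harvest day and group cannot be told apart in these comparisons.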

How the results depend on the processing

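Of 40 log2 fold changes (8 members in 5 comparisons), 23 kept their direction and call in all 18 alternatives, 10 gained or lost a call and 8 changed sign in at least 1 alternative. The PEA3 and ETS1 calls against CC were among those kept. The counts of members called moved as follows, and the cause was not tested. In PC against CC, 1 instead of 2 members was higher with library totals, with the filter on summed counts, in the replicate block and in the fit of the groups compared alone, since GABPA was lost. In PC against TC, 1 instead of 0 was higher, ETV1, with DESeq2's size factors, library totals, the DESeq2 test and the replicate block. In RC against PC, 1 instead of 2 was lower beyond 1.5-fold in DESeq2. Over all lists in RC against CC, 3 genes were higher, which became 5 in DESeq2 and 1 in the fit of the groups compared, where 5 instead of 10 were lower. Of all tested genes, 2900 were higher, 3212 in DESeq2 and 2209 in the fit of the groups compared, where 2352 instead of 3042 were lower. In PC against TC, 1 list gene was higher and 3 were in the fit of the groups compared, where the counts over all tested genes were 1944 and 2416.

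Without 1 library, the members called higher ranged from 1 to 4 in PC against CC (4 without CC replicate 3), from 1 to 2 in RC against CC and from 0 to 1 in PC against TC. Those called lower ranged from 0 to 1 in RC against CC and, beyond 1.5-fold, from 1 to 2 in RC against PC. Over all lists, 1 to 9 genes were higher and 4 to 13 lower in RC against CC (9 higher without CC replicate 3), and 0 to 3 were higher in PC against TC. The counts over all tested genes moved too. Without 1 library, 2219 to 3379 of them were higher and 2188 to 3238 lower in RC against CC. In PC against CC 4936 to 5453 were higher, and in PC against TC 1381 to 2456. Lower beyond 1.5-fold in RC against PC were 2724 to 3109.

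The values that changed sign lay near 0 and were called neither before nor after the change. In RC against CC, ETV5 was 0 with DESeq2's size factors, the DESeq2 test and the replicate block, 0.01 with the filter on summed counts, 0.02 with library totals and -0.09 to 0.11 without 1 library. ETV4 was 0.01 with library totals and -0.03 to 0.01 without 1 library, ELK3 0.01 and -0.07 to 0.06, and GABPA -0.02 to 0.07 without 1 library. In PC against TC, ELK3 was 0.01 with DESeq2's size factors and the DESeq2 test, 0.02 with library totals and -0.04 to 0.04 without 1 library, and ETS2 -0.05 to 0.43. In TC against CC, ELK1 was -0.02 to 0.19 and ETS2 -0.1 to 0.43 without 1 library.

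Correlations of same-numbered libraries between groups do not decide whether replicate numbers pair the libraries. Of 18, which ran from -0.047 to 0.202, 2 were over 0.1, both between TC and PC (0.202 and 0.181). The same was not computed for differently numbered libraries. With the replicate block, PC against CC gave 1 member higher and 3 lower. Depth was above the floor for every member, and the smallest counts were those of ETV4 in TC and PC, between 57 and 128 reads per library.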
